A study of Mus musculus with 6 samples.

Results

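Cells hold on to the extracellular matrix through a limited set of surface receptors, and the genes of these receptors are described here in the hearts of adult mice. The set holds every gene whose symbol begins with Itga or Itgb, the integrin alpha and beta chains, together with Ddr1, Ddr2, Sdc1, Sdc2, Sdc3, Sdc4, Cd44 and Dag1. The secreted integrin-like protein gene Itgbl1 was left out. Genes were taken from probe sets with 1 gene symbol, and each gene was represented by its probe set of highest mean level. This gave 38 members among 19938 genes: 18 integrin alpha chains, 9 integrin beta chains, 8 other receptors, and 3 integrin-binding proteins (Itgb1bp1, Itgb1bp2 and Itgb3bp) that the symbol rule brings in although they are not receptors.

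The study measured 6 heart samples of mice aged 6 months (postnatal day 180), each on 1 Affymetrix Mouse Gene 1.0 ST array. It compared hearts after loss of Id1 and Id3 in the vasculature with controls, and a knockout heart incubated with the secreted protein IGFBP3 with one that was not. The wild type (WT) group is 1 array. The Id control group is 2 arrays of unlike genotype. Id control 1 (Id1F/+Id3-/-) has 1 floxed and 1 wild-type Id1 allele, lacks Id3 and carries no Cre by its label. Id control 2 (Tie2Cre+Id1-/-Id3+/-) carries Tie2Cre, lacks Id1 and keeps 1 Id3 allele. The Id conditional knockout (Id cKO, Tie2Cre+Id1F/-Id3-/-) is 1 array. It lacks Id3 and has 1 null Id1 allele in every cell, and its other, floxed Id1 allele is deleted where Tie2Cre is active. Tie2Cre is active in endothelial cells and also in blood cells. A further Id cKO heart was incubated with IGFBP3, and another without it served as its untreated control, 1 array each. The labels give no genotype for this pair beyond Id cKO and do not say how many animals gave a sample, so a p-value reflects no more than the scatter among these samples, and that scatter may be technical. It comes from the 2 Id control arrays, so it also holds their difference in genotype.

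The samples fall under 3 date codes in the labels, which do not say what the codes date. One code covers WT, Id control 2 and Id cKO, another Id control 1, and the last the treated and untreated pair. The pair lies on a lower scale, with array medians of 4.45 and 4.51 (log2) against 5.73 to 5.83 on the other arrays. The pair was therefore set against the other arrays only after quantile normalization, and there date code and group cannot be told apart. The X-inactivation RNA Xist was high (8.15 to 8.62) on the Id control and Id cKO arrays only. The Y-linked Eif2s3y was high on the WT array (7.98) and on the pair (7.07 and 6.20), so that sex pattern differs between the groups. The targeted genes followed the labels: Id1 measured 6.41 (Id control 2) and 6.48 (Id cKO) beside 8.14 (WT) and 8.11 (Id control 1), and Id3 measured 5.02 (Id control 1) and 4.69 (Id cKO) beside 7.18 (WT) and 7.32 (Id control 2). On the pair Id1 was at 5.70 on both arrays and Id3 at 4.13 (treated) and 3.87 (untreated). How these probe sets lie to the deletions was not looked at. All 10 cardiomyocyte markers were high, with list means from 13.30 to 13.44 on the arrays other than the pair.

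Integrins are pairs of an alpha and a beta chain that bind matrix outside the cell and the actin cytoskeleton inside it. The alpha chain largely sets the ligand: collagens for the products of Itga1, Itga2, Itga10 and Itga11, laminins for those of Itga3, Itga6 and Itga7, and proteins with an RGD motif such as fibronectin and vitronectin for those of Itga5, Itga8, Itgav and Itga2b. Discoidin domain receptors are collagen-activated tyrosine kinases, syndecans are heparan sulfate proteoglycans, CD44 binds hyaluronan, and dystroglycan, from Dag1, ties laminin to dystrophin in heart muscle. Heart muscle cells, endothelial cells, fibroblasts and leukocytes each carry their own selection of these receptors. The samples are whole heart tissue, in which fewer cells of a type and less RNA per cell cannot be told apart.

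Differences are given on the log2 scale, first-named sample minus second, and genes entered a comparison if either group averaged 6 or more. A gene was called where the difference was at least 2-fold, the fold change by which the submitters filtered, and with several arrays on one side where this held against each of them in the same direction. The floor left out 6 members that never reached it on any array, namely Itgae, Itgal, Itgax, Itgb2l, Itgb7 and Itgb3bp. Levels of different genes come from different probe sets and were not set against each other.

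Integrin alpha chain genes were the members that stood highest in Id cKO over WT: Itga9, Itga6, Itga1 and Itga5. They encode the chains of a receptor for tenascin and other ligands, of a laminin receptor, of a collagen receptor and of the classical fibronectin receptor. All of them pair with the beta chain of Itgb1, which itself was 0.41 higher. Of 30 members compared, these 4 were at least 2-fold higher and 0 were 2-fold lower, where 2.2% of all compared genes were 2-fold higher and 0.967% lower. Each group is 1 array, so these differences have no replicate check and no test.

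Itga9 measured 8.43 (WT), 9.01 (Id control 1), 9.39 (Id control 2) and 9.99 (Id cKO), a 2.96-fold difference between Id cKO and WT. Itga6 measured 8.30 (WT), 8.78 and 8.42 (Id controls 1 and 2) and 9.63 (Id cKO), 2.53-fold over WT. Itga1 measured 8.50 (WT), 8.92 and 8.54 (Id controls 1 and 2) and 9.77 (Id cKO), 2.41-fold over WT. For Itga6 and Itga1 the WT array and at least Id control 2 lay close together with Id cKO well above every other array, whereas Itga9 was already higher in both Id controls than in WT. Itga5 measured 7.74 (WT), 8.30 and 8.38 (Id controls 1 and 2) and 8.91 (Id cKO), 2.24-fold over WT. Its Id control values lay midway, 0.56 and 0.63 above WT and 0.60 and 0.53 below Id cKO.

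**Figure D1:**
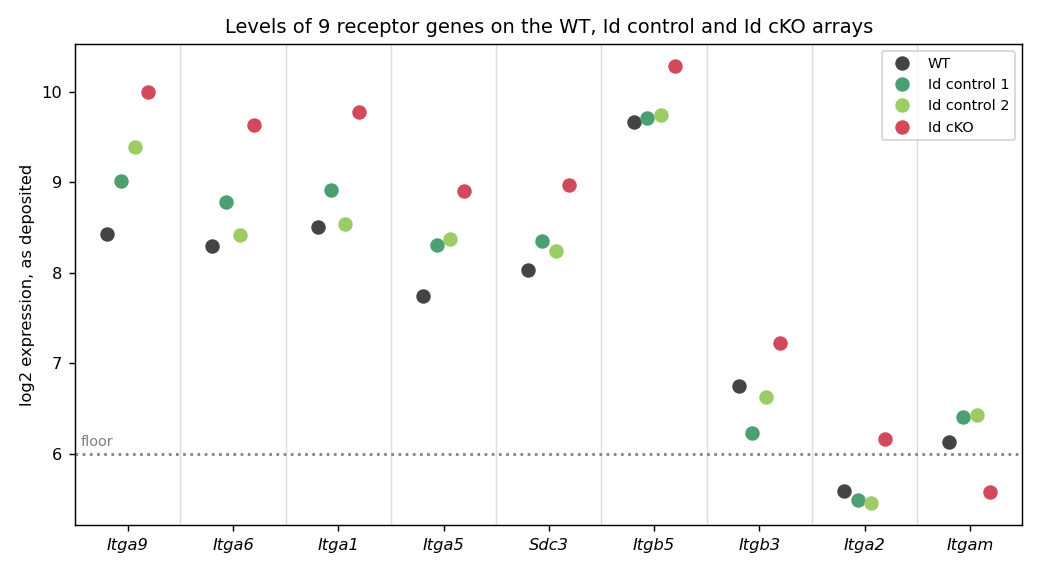
Log2 expression as deposited (vertical axis) of 9 receptor genes for WT, Id control 1, Id control 2 and Id cKO, 1 point per array, with the floor of 6 as a dotted line. The Id cKO point is the highest of the 4 for every gene shown except Itgam, where at 5.58 it is the lowest. The genes shown are a selection from the compared members, so this pattern is not that of all members. Itgb6 and Ddr2, where Id cKO lay below both Id controls, are not shown.

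The sequences before the start sites of called genes are shown because, as background, Id proteins hold back E proteins, and these bind the E-box, CANNTG. RefSeq promoter sequences of GRCm38.p6 matched 28 of the 38 members by symbol, with 34 start sites. Itga1, Itga5 and Itga9 are shown from the called genes, with no entry for Itga6, and Sdc4 is shown because it differed most on the untreated heart described further on. Each is the 250 bases before the start site, 5′ to 3′ on the gene's strand, in lower case with each E-box in capitals.
Itga1 (chr13:115101965-115102214, minus strand): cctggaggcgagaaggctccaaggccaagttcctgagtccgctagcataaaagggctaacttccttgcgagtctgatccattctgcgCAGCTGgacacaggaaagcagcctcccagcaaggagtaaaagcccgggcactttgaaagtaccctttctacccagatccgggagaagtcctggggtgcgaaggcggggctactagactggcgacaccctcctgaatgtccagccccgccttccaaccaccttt
Itga5 (chr15:103366792-103367041, minus strand): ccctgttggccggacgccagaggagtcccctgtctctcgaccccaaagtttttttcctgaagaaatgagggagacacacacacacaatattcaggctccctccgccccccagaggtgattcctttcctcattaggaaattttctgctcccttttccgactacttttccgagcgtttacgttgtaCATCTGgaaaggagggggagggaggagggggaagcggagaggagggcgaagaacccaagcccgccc
Itga9 (chr9:118711442-118711691, plus strand): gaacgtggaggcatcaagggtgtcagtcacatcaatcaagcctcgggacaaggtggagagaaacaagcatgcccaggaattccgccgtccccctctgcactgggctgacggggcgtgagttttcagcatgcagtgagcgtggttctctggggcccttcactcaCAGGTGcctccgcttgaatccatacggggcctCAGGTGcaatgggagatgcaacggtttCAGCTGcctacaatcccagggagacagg
Sdc4 (chr2:164443189-164443438, minus strand): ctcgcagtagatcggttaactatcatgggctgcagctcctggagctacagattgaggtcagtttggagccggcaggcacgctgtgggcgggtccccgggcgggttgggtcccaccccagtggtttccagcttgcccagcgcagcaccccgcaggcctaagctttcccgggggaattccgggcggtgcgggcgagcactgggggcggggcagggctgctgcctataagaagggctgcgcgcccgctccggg

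The Itga9 stretch held 3 E-boxes, starting 87, 55 and 28 bases before the start site, of which CAGGTG occurred in 2 and CAGCTG in 1. Itga1 held 1 (CAGCTG, 163 bases before the start site) and Itga5 held 1 (CATCTG, 66 bases before it), and Sdc4 held 0. CANNTG reads the same pattern on both strands, and it was found in 66.2% of all 32851 RefSeq stretches of this length and in 67.6% of the 34 of the members. The shares for CAGCTG alone were 13% and 23.5%, and for CACCTG or CAGGTG 17.2% and 20.6%, both of which overlap with CANNTG. A match describes these letters and is not evidence of binding.

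The remaining members differed less between Id cKO and WT. Among the collagen receptors, Ddr1 was 0.43 and Ddr2 0.24 higher. Itga2, the neighbour of Itga1 on chromosome 13, measured 5.58 (WT), 5.49 and 5.45 (Id controls 1 and 2) and 6.16 (Id cKO), and passed the floor through Id cKO alone. Itga4, a chain of the receptor for vascular cell adhesion molecule, also passed through Id cKO alone (6.01, against 5.72 in WT), as did Cd44 and Itga8, while Itgam and Itga10 passed through WT alone. Laminin receptors other than Itga6 were closer to WT, with Itga3 0.40 higher and Dag1, Itga7 and Itgb4 at -0.06, -0.01 and 0.05. Itga7 is the main laminin-binding alpha chain of muscle, and its levels of 9.33 in WT and 9.32 in Id cKO were the nearest to each other among the compared members.

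Among receptors for fibronectin and vitronectin, Itgb5 was 0.62, Itgav 0.57 and Itgb3 0.47 above WT in the Id cKO heart, and Itga2b, the platelet fibrinogen receptor chain, 0.52 lower. Platelet genes were lower in Id cKO as well: all 4 compared platelet markers were below WT, Ppbp by 3.23. Of these Ppbp (5.31 in Id cKO) and Gp9 (5.86) reached the floor only through WT, so they had to be lower to be compared. The list mean was 5.52 in Id cKO, 5.76 and 5.67 in the Id controls and 6.44 in WT. The part of platelet genes in the Itga2b value was not tested. All 5 syndecan and Cd44 genes were higher than in WT, by 0.94 for Sdc3, 0.76 for Cd44 and at most 0.33 for the others. In all, 22 of the 30 members were higher, with a median of 0.34, against 50.8% of all compared genes and their median of 0.0045. The same median for Id control 1 minus Id control 2 was -0.05.

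Markers of endothelial cells and fibroblasts also stood apart between these hearts. Of 10 endothelial markers 9 stood above WT in Id cKO, with a median of 0.50 and list means of 9.10 (WT), 9.16 and 9.12 (Id controls 1 and 2) and 9.65 (Id cKO). Of 10 fibroblast markers 6 were higher, 5 of them 2-fold (Col1a1, Col14a1, Mfap5, Lum and Col1a2). Dpt (-0.64), Pdgfra (-0.39), Tcf21 (-0.08) and Dcn (-0.01) were lower, so the list did not share a direction. Col1a1 and Col1a2 are also among the ligands below. The fibroblast list means were 8.20, 8.72, 9.58 and 8.92 on the same arrays. The endothelial means thus ran with Itga6 and Itga1, while the fibroblast mean was highest in Id control 2. None of the markers of either list was under the floor, and their part in the receptor values was not tested.

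Id cKO was then set beside the Id controls, which share its female pattern. Of 31 compared members 13 (41.9%) lay above both Id control arrays, Itga1 and Itga6 furthest, and 9 (29.0%) lay below both. Of all compared genes 33.5% lay above both arrays and 41.9% below both. Among these members, Itga2 and Itga4 reached the floor only through Id cKO, and Itgam, Itgb8 and Itga11 only through the Id controls. The direction of these genes was thus set by their entry. Furthest below was Itgam, the alpha chain of complement receptor CR3 on myeloid cells. None was 2-fold from each Id control array, so 0 members were called in either direction, against 0.698% of all compared genes higher and 0.424% lower. Set only against Id control 2, the array of the same date code, Itga1 (1.24) and Itga6 (1.22) were past 2-fold. Over all compared members the median was 0.01, with 17 of 31 higher, beside a median of -0.03 and 45.3% of all compared genes.

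In limma with Benjamini-Hochberg adjustment over all compared genes, 0 of 31 members passed an adjusted p of 0.05 between Id cKO and Id control (0.0177% of all compared genes did), and the smallest adjusted p of a member was 0.217. At an unadjusted p under 0.05, 9 members were higher (Itga1, Itga6, Itga2, Sdc3, Itgb5, Itga5, Itga9, Itgb3 and Itga4) and 2 lower (Itgam and Itgb1bp2), where 6.08% of all compared genes were higher and 7.38% lower. Itga2 and Itga4 reached the floor only through Id cKO, and Itgam only through the Id controls, so that these members had to differ in that direction to be compared. The SD and SE values rest on the 2 Id control arrays, which differ in genotype and date code and are not replicates of 1 condition. The mean of the Id controls was 8.73 ± 0.27 (SD, n = 2) for Itga1, with Id cKO 1.05 ± 0.21 (limma SE) higher, adjusted p = 0.236. For Itga6 the mean was 8.60 ± 0.26 (SD, n = 2), with Id cKO 1.03 ± 0.21 (limma SE) higher, adjusted p = 0.236. Sdc3, a syndecan, measured 8.35 and 8.24 (Id controls 1 and 2) and 8.97 (Id cKO), a difference of 0.67 ± 0.14 (limma SE), adjusted p = 0.236.

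Itga9 was 0.79 ± 0.21 (limma SE) higher than in the Id controls, with an adjusted p of 0.294 in limma. Itgb3, the beta chain that pairs with Itgav and Itga2b, measured 6.23 and 6.63 (Id controls 1 and 2) and 7.22 (Id cKO), a difference of 0.79. Itgb5, another beta partner of Itgav, measured 9.71 and 9.74 (Id controls 1 and 2) and 10.29 (Id cKO), while WT at 9.66 lay beside the Id controls. Itgav itself, at 8.46, lay between its Id control values of 8.36 and 8.63. The other beta partners of Itgav did not share one direction: Itgb6 (-0.55) and Itgb8 (-0.50) lay below both Id controls, and Itgb1 was at 0.09. Itgb8 reached the floor only through the Id controls, so it had to be lower in Id cKO to be compared.

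Itgam measured 6.13 (WT), 6.41 and 6.43 (Id controls 1 and 2) and 5.58 (Id cKO), a difference of -0.84 ± 0.14 (limma SE) from the Id controls, adjusted p = 0.217. Its beta partner Itgb2, the chain shared by leukocyte integrins, was at 6.10, 6.43, 6.38 and 6.31 on the same arrays and so did not follow it. Of 11 compared leukocyte and macrophage markers 9 were lower in Id cKO than in Id control, with a median of -0.31, and Cd163, a scavenger receptor of resident macrophages, was called lower (7.28 and 7.62 in the Id controls, 5.84 in Id cKO). The list means were 7.29 in WT, 7.51 in both Id controls and 7.18 in Id cKO, and their part in the Itgam value was not tested. All 8 neutrophil markers and 8 of 9 lymphocyte markers were under the floor on these 4 arrays.

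Against WT, the Id control hearts had slightly higher levels of many receptor genes, none of them called. Of 30 compared members 25 had a higher mean in the Id controls, with a median of 0.30, beside 60.1% of all compared genes and their median of 0.05. No member was 2-fold from WT on both arrays, where 0.105% of all compared genes were called higher and 0.0964% lower, 12 and 11 genes as deposited, or 17 and 7 after median centring of the arrays. In limma with Benjamini-Hochberg adjustment 0 of 30 members passed an adjusted p of 0.05, as did 0% of all compared genes, and at an unadjusted p under 0.05 there were 6 higher and 1 lower, against 4.83% and 2.43% of all compared genes. The adjusted p was 0.629 for each of these 7, namely Itga9, Itgav, Itga5, Ddr2, Ddr1 and Itga11 higher and Itga2b lower. Itga11 reached the floor only through the Id controls, as did Cd44, Itga8 and Itgb8.

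Itga9 was 0.59 and 0.97 higher in Id controls 1 and 2 than in WT. Itgav, which pairs with several beta chains to bind vitronectin and latent TGF-beta, measured 7.89 (WT), 8.36 (Id control 1) and 8.63 (Id control 2). Ddr2, the fibroblast collagen receptor kinase, measured 7.68 (WT), 8.19 and 8.34 (Id controls 1 and 2) and 7.92 (Id cKO), so that Id cKO lay below both Id controls. Itga8, a nephronectin and fibronectin receptor chain of mesenchymal cells, had the widest spread between the Id controls: 5.97 in WT, 6.43 in Id control 1, 7.40 in Id control 2 and 6.55 in Id cKO. Within the shared date code it was thus 1.43 higher in Id control 2 than in WT, past 2-fold, and without Id control 2 it was 0.46 higher.

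Between the Id control arrays themselves, 0 of 29 compared members were 2-fold apart, where 0.169% of all compared genes were 2-fold higher in Id control 1 and 1.04% lower. Itga8 (-0.97), Cd44 (-0.54) and Itgb8 (-0.49) were higher in Id control 2, and Itgb6 (0.61), an epithelial beta chain, in Id control 1. Itgb8, a beta partner of Itgav, measured 5.78 (WT), 5.92 and 6.41 (Id controls 1 and 2) and 5.66 (Id cKO). It was highest in Id control 2, the sole array of these above the floor. Atrial muscle markers were far apart on the same arrays, with all 4 compared markers at least 2-fold higher in Id control 2 and list means of 6.50 and 10.01. Fibroblast markers were higher in Id control 2 in 10 of 10 cases, and the part of either cell type in the Itga8 value was not tested.

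The ligands of these receptors, from collagens to adhesion molecules, also included genes far above WT in the Id cKO heart. Of 30 compared ligand genes 14 were at least 2-fold higher and 0 lower in Id cKO, with a median of 0.89, beside 2.2% and 0.967% of all compared genes and their median of 0.0045. They include the matricellular proteins Postn (3.44), Thbs1 (1.42) and Tnc (1.31), fibronectin Fn1 (1.98), the collagen chains Col1a1 (1.76) and Col4a1 (1.55), and the laminin chains Lama4 (1.25) and Lamc1 (1.12). Tnc reached the floor only through Id cKO, so it had to be higher there to be compared. Fn1 measured 7.97 (WT), 8.39 and 9.16 (Id controls 1 and 2) and 9.96 (Id cKO), in the same order as its receptor chain gene Itga5. Against the Id controls 2 of 31 ligand genes were called, Postn (2.30) and Col4a1 (1.29), beside 0.698% of all compared genes higher and 0.424% lower. Between the Id control arrays 5 of 30 were called, all higher in Id control 2, beside 1.04% of all compared genes called in that direction. The ligand list was written with earlier results on matrix genes of these data known, so its count is a description.

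**Figure D2:**
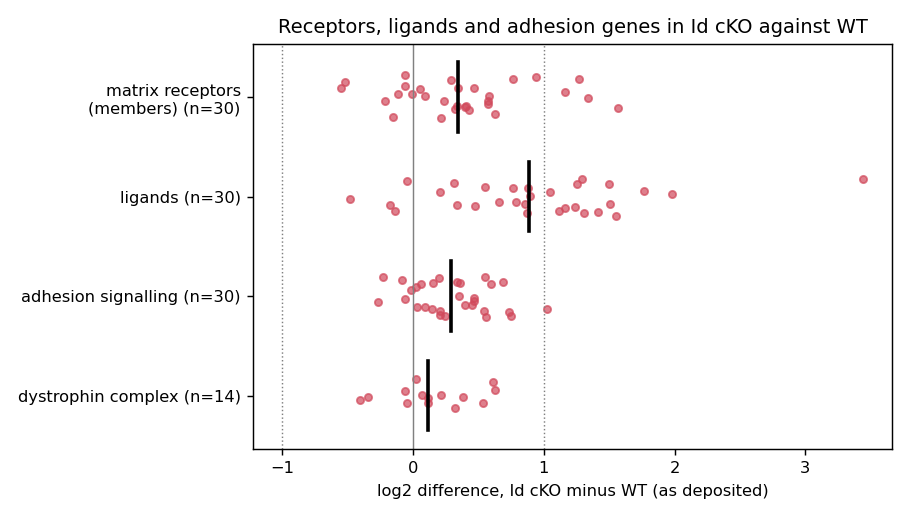
Log2 difference of Id cKO minus WT as deposited (horizontal axis), 1 point per compared gene, for the matrix receptors, their ligands, adhesion signalling genes and the dystrophin complex, with the list median as a black bar and 2-fold as dotted lines. The ligand median lies at 0.89 and the receptor median at 0.34.

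Genes that act inside the cell at integrin adhesions mostly stood above WT by less than 2-fold. Of 30 compared adhesion and signalling genes 25 were above WT in Id cKO (83.3%, beside 50.8% of all compared genes), with a median of 0.29 beside 0.0045, and 1 was called where 2.2% of all compared genes were, Ptk2b (1.02), a tyrosine kinase of the focal adhesion kinase family. Against the Id controls 24 of 30 (80%, beside 45.3% of all compared genes) were higher and 0 were called, with Ptk2b at 1.08, Parvb at 0.51 and the integrin activator talin, Tln1, at 0.49. In limma 0 of these passed over all genes, with a smallest adjusted p of 0.313. Of 14 dystrophin-glycoprotein genes 0 were called in either comparison, with medians of 0.11 against WT and -0.13 against the Id controls. Pomt1, a glycosyltransferase of dystroglycan, was -0.82 from the Id controls.

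The untreated Id cKO heart of the pair gave a further view of the knockout, on the quantile-normalized scale. Sdc4, Cd44, Sdc3, Itga5 and Sdc1 were high in it and Itgb6 was low. Of 27 compared members 5 were at least 2-fold higher than each of WT, Id control 1 and Id control 2, and 1 was lower, where 4.34% of all compared genes were called higher and 3.65% lower. Of these Cd44 and Sdc1 reached the floor only through the untreated heart, in which they were high, and Itgb6 only through the other side, so a difference was built into their entry and the counts are a description. Sdc4, Sdc3 and Itga5 were above the floor on both sides. As deposited, without rescaling the pair, Sdc1 (6.23) lay below WT and both Id controls (6.26, 6.33 and 6.36), so its direction rests on the normalization. Cd44 (6.66) and Itga5 (8.31) as deposited lay below Id control 2 (6.77 and 8.38). Their place above each of these arrays thus rests on the normalization too. The median of the members was 0.62, beside -0.02 for all compared genes. Itgam, Itgb2, Itgad, Itga11 and Itgb4 also reached the floor only through the untreated heart, so they could only be higher in it. The floor thus bears on this median, which was lower with no floor. This heart differs from those arrays in date code and in scale as well as in genotype, and from the Id controls in sex pattern, so these cannot be told apart. Id cKO and the untreated heart are set against the same 3 arrays, and their values are given side by side. On the same scale Id cKO had 0 of 21 compared members called against these arrays, beside 0.777% of all compared genes higher and 0.353% lower. Directly against Id cKO the untreated heart had 4 of 27 members 2-fold higher (Sdc4, Itgam, Cd44 and Sdc1) and 1 lower (Itgb6), beside 4.97% and 3.44% of all compared genes. Itgam and Sdc1 reached the floor only through the untreated heart and Itgb6 only through Id cKO, so nothing is read from these counts.

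Sdc4, a syndecan found in focal adhesions, measured 6.85 (WT), 7.25 and 7.01 (Id controls 1 and 2) and 7.15 (Id cKO), but 9.66 in the untreated and 9.36 in the treated heart (quantile-normalized). The untreated heart was 6.17-fold above the mean of WT and the Id controls, and 5.70-fold above Id cKO. As deposited, where the pair is scaled lower, Sdc4 was still highest on the pair, at 8.79 and 8.56 against 7.22 to 7.66 elsewhere. Sdc4 thus separated the pair from every other array, Id cKO included.

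Cd44, the hyaluronan receptor, measured 5.50 (WT), 5.83 and 6.36 (Id controls 1 and 2), 6.32 (Id cKO) and 7.48 in the untreated heart (quantile-normalized). Sdc3 was at 7.68, 7.92 and 7.80 in WT and the Id controls, 8.58 in Id cKO and 9.36 in the untreated heart. Itga5 ran from 7.39 (WT) through 7.87 and 7.93 (Id controls 1 and 2) and 8.52 (Id cKO) to 9.17 (untreated heart). On this scale both knockout hearts lay above all of WT and the Id controls for Sdc3 and Itga5. Sdc1 was between 5.82 and 5.96 on the first 4 arrays and at 7.05 in the untreated heart.

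Itga6 and Itga1 were in a like position in both knockout hearts after quantile normalization. On the quantile-normalized scale Itga6 was at 7.95, 8.36 and 7.98 in WT and the Id controls, 9.23 in Id cKO and 9.31 in the untreated heart, where it missed the call against Id control 1 (0.95). Itga1 was at 8.15, 8.49 and 8.09, then 9.36 in Id cKO and 9.20 in the untreated heart. As deposited Itga6 was at 8.45 in the untreated heart, below Id control 1 (8.78). Itga1 as deposited was at 8.34 there, below WT and both Id controls (8.50, 8.92 and 8.54). The positions of both genes in that heart thus rest on the normalization. Itga9, the furthest from WT in Id cKO, was at 9.59 there and at 9.16 in the untreated heart, 0.21 above Id control 2. Itgb6 was at 6.92, 7.49, 6.88 and 6.64 on the first 4 arrays and at 5.20 in both hearts of the pair.

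**Figure D3:**
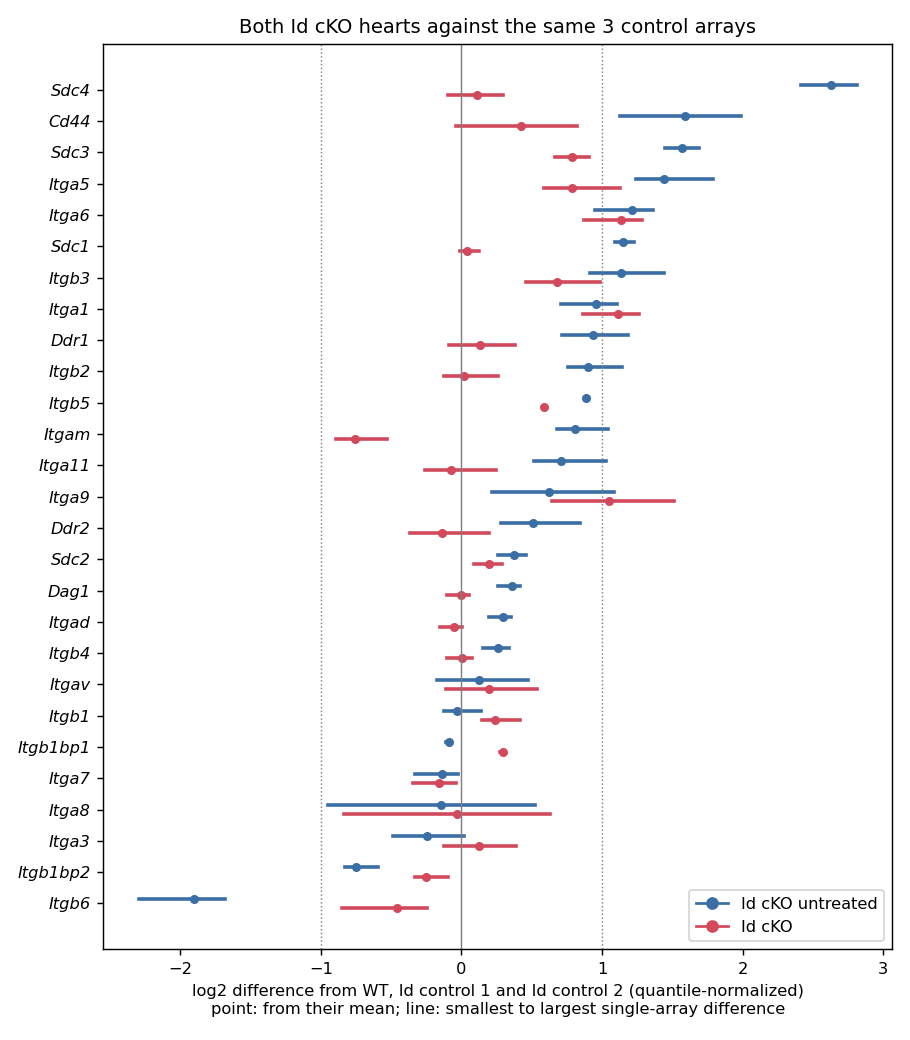
Log2 difference (horizontal axis, quantile-normalized) of the untreated Id cKO heart and of the Id cKO heart from WT, Id control 1 and Id control 2 for 27 members; points show the difference from the mean of those arrays and lines run from the smallest to the largest single-array difference, with 2-fold dotted. Sdc4 lies at 2.63 in the untreated heart and 0.11 in Id cKO, while the lines of Itga6 overlap.

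After quantile normalization the leukocyte integrin genes Itgam and Itgb2 also lay above each of those arrays in the untreated heart, short of the 2-fold call. Both reached the floor only through that heart. Itgam was at 6.71 there, against 5.67 (WT), 6.00 and 6.03 (Id controls 1 and 2) and 5.14 (Id cKO), and Itgb2 was at 6.78 against 5.64 to 6.02 on the other 4 (quantile-normalized). As deposited Itgam in the untreated heart (5.90) lay below WT and both Id controls (6.13, 6.41 and 6.43). Itgb2 (5.97) as deposited lay below them too (6.10, 6.43 and 6.38). The place of both genes above those arrays thus rests on the normalization. All 11 compared leukocyte and macrophage markers were above the mean of WT and the Id controls. Of these 5 were called (Cd14, C1qa, C1qc, Cd68 and Lyz2), where 4.34% of all compared genes were called higher. Cd14 and Fcgr1 reached the floor only through the untreated heart, so they could only be higher in it. Ptprc (-0.05) was under the floor on both sides and was not compared. The list mean was 7.90 against 6.77 to 7.09 on the first 4 arrays, and as deposited 7.08 against 7.18 to 7.51. Of 31 compared ligand genes 9 were called higher and 0 lower, where 4.34% of all compared genes were called higher and 3.65% lower. The endothelial ligands of leukocyte integrins, Vcam1 (2.40) and Icam1 (1.92), were called higher, and so were Thbs1 (4.51), Postn (4.27) and the hyaluronan synthase gene Has1 (2.99). Has1 reached the floor only through the untreated heart, so it could only be higher in it. Fibroblast markers were higher in 10 of 10 cases, with a list mean of 9.44 against 7.83 to 9.14, and endothelial markers likewise, with a list mean of 9.51 against 8.67 to 9.25. As deposited the fibroblast mean in the untreated heart was 8.63, within the 8.20 to 9.58 of the first 4 arrays. The endothelial mean was 8.65 as deposited, below their 9.10 to 9.65. The place of these list means above the first 4 arrays thus rests on the normalization. The part of these cells in the values of Cd44, Sdc4, Itgam, Itga6 and Itga1 was not tested.

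**Figure D4:**
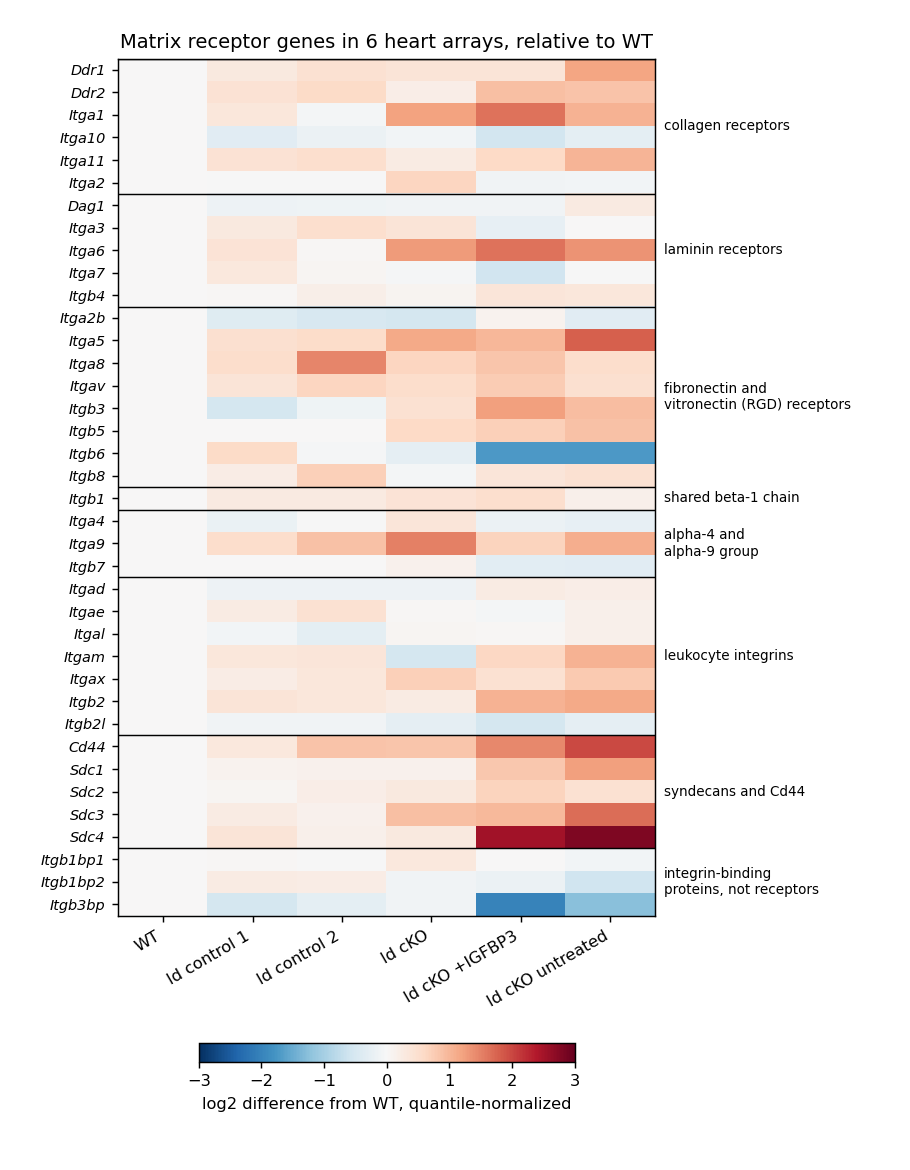
Log2 difference from WT after quantile normalization (color) of all 38 members (rows, grouped by role) on the 6 arrays (columns); members under the floor are included. Sdc4 is reddest and Itgb3bp and Itgb6 are bluest on the treated and untreated arrays, while Itga1, Itga6 and Itga5 are red on all 3 Id cKO arrays.

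IGFBP3 treatment was compared within the pair as deposited, 1 array against 1. The arrays of this pair share 1586 exactly equal probe set values, where no other array shares more than 32 with any array, and the part of this in the differences was not tested. No receptor gene was 2-fold apart: of 19 compared members 0 were called, where 0.495% of all compared genes were 2-fold higher in the treated heart and 0.803% lower, 37 and 60 genes as deposited and 80 and 44 after median centring. The differences ran both ways, 9 members higher and 10 lower in the treated heart, with a median of -0.13 beside 0.05 for all compared genes. There is no replicate check.

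Ddr1, the collagen receptor kinase of epithelial cells, was at 6.53 in the treated and 7.28 in the untreated heart. Itga5 was at 7.60 and 8.31, and Sdc3 at 7.85 and 8.51. Itga1 ran the other way, at 8.99 in the treated and 8.34 in the untreated heart, as did Itgb1 at 10.12 and 9.67 and Itga6 at 8.80 and 8.45. The fibronectin receptor chain was thus lower with treatment by 0.71 and the collagen receptor chain higher by 0.65, where all compared genes had a median of 0.05. Sdc1, Cd44 and Sdc4 were lower by 0.40, 0.50 and 0.23, and Sdc2 was higher by 0.25.

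**Figure D5:**
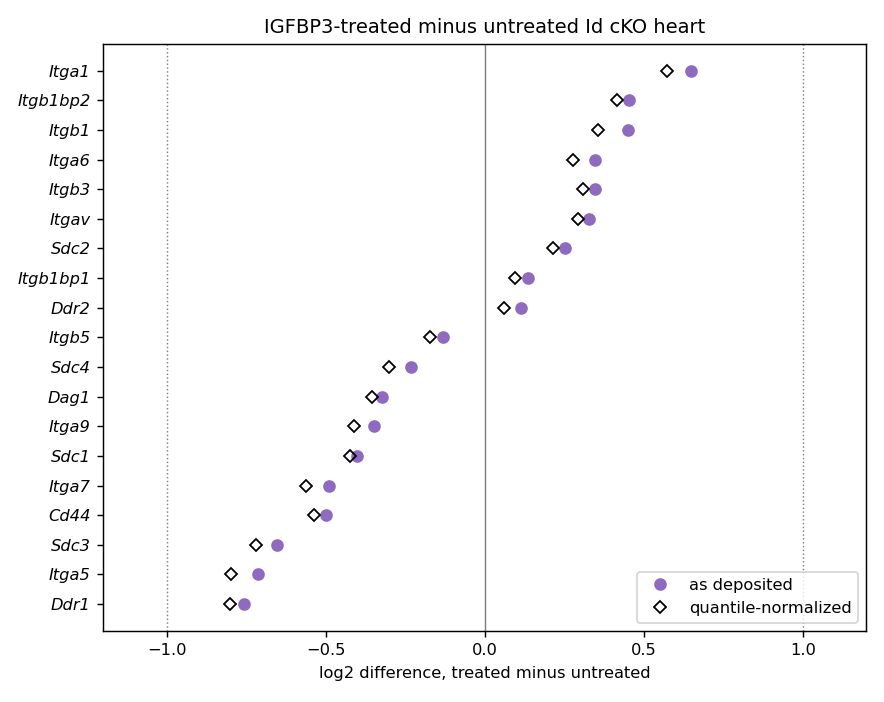
Log2 difference of the IGFBP3-treated minus the untreated Id cKO heart (horizontal axis) for the 19 compared members, as deposited (filled points) and after quantile normalization (open diamonds), with 2-fold dotted. Ddr1 (-0.76) and Itga5 (-0.71) lie lowest and Itga1 (0.65) highest as deposited, and no point reaches 2-fold.

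In the same pair, of 28 compared adhesion and signalling genes 1 was called, the focal adhesion protein gene Zyx (-1.13), with 19 lower. Of 30 ligand genes 21 were lower and 2 of these were called, Tgfb1 (-1.31) and Col1a1 (-1.10). Among all compared genes 45.1% were lower, 0.803% by 2-fold. Of 10 compared leukocyte and macrophage markers 6 were lower, none called, with a median of -0.30 and list means of 6.88 in the treated and 7.08 in the untreated heart, and their part in the Cd44 value was not tested. Of 10 endothelial markers 9 were higher with treatment, none called, with a median of 0.23, and their part in the Itga1 value was not tested either. The dystrophin gene Dmd was 0.98 higher in the treated heart and no dystrophin-complex gene was called among 11 compared.

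The integrin-binding proteins differed in direction from WT in Id cKO. Itgb1bp2, the muscle protein melusin encoded on the X chromosome, measured 9.24 (WT), 9.55 and 9.57 (Id controls 1 and 2) and 9.18 (Id cKO). Itgb1bp1, a regulator of the beta chain tail, measured 7.64 (WT), 7.74 and 7.72 (Id controls 1 and 2) and 7.99 (Id cKO), 0.35 above WT and above both Id controls. The ranges of further members over the arrays other than the pair were 5.63 to 6.03 for Itga10, 5.76 to 6.17 for Itga11, 6.32 to 6.47 for Itgb4, 8.45 to 8.77 for Sdc2 and 6.25 to 6.43 for Itgad. Among those below the floor, Itgax, a dendritic cell and macrophage chain, ranged from 4.25 in WT to 4.97 in Id cKO, and Itgal, Itgae, Itgb2l, Itgb7 and Itgb3bp from 4.71 to 5.97 on the same arrays.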

How the data were processed

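The authors deposited log2 levels for 35557 probe sets on each of 6 arrays. The submitters' processing notes name RMA (background correction, distribution alignment and probe summary) and Affymetrix Expression Console, with no version in the sources used here. The array medians show that the pair was not brought to the scale of the rest. The platform annotation gave 1 gene symbol to 21789 probe sets, several to 1621 and none to 12147; the latter 2 kinds named no gene. The number of arrays limits the precision.

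Quantile normalization over the 6 arrays and limma (version 3.58.1, R 4.3.3) on the deposited values, with Benjamini-Hochberg adjustment, were computed here; the fit had 6 arrays in 5 groups, so its single residual degree of freedom (1) comes from the 2 Id control arrays, and a lone array is assumed to vary like them. The 2 Id control arrays differ in genotype and date code, so this scatter is not that of replicates. A date code term would leave no residual degree of freedom. The fit was tested on simulated data.

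Members and lists were chosen with earlier results of these data known. Values on every array were given for members called in a comparison and for the 4 with the largest difference in each, others by range; from each pathway list, called genes or the 3 largest differences. Genes named beyond this, such as partner chains, were chosen after their values were seen. Of the list symbols, 13 were not used because no probe set carried them alone. Alternatives were 3 other scalings, other floors (none, 7, 8), the mean over probe sets, a 1.5-fold limit, leaving out each Id control array, and 2 other limma settings.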

Additional observations from a re-analysis of the deposited data

Results flagged for a closer look

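Itgam and Itgb1bp1 lay on opposite sides of WT and both Id control arrays in the 2 untreated knockout hearts (quantile-normalized; the difference was not tested, and date code, scale and sex pattern differ too). Itgam was below all of them in Id cKO and above all of them in the untreated heart, which stood 1.57 above Id cKO. As deposited the untreated heart (5.90) lay below WT and both Id controls (6.13, 6.41 and 6.43) for Itgam. Its place above them thus rests on the normalization. On the quantile-normalized scale Itgam was under the floor in Id cKO (5.14) and reached it only through the untreated heart. Itgb1bp1 was above all of them in Id cKO and below all of them in the untreated heart, a difference of -0.38 between these hearts. The untreated heart was only slightly below WT (-0.08) and Id controls 1 and 2 (-0.11 and -0.07).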

How the results depend on the processing

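No called receptor gene changed direction under the alternatives tried, which for the untreated heart all rescale the pair (as deposited, Sdc1 lies below WT and the Id controls), and in limma 0 members passed under each of them. The median over members between Id cKO and WT was 0.39 with quantile normalization, 0.48 with median centring, 0.40 with cyclic loess, 0.26 with no floor, 0.41 at a floor of 7 and 0.60 at a floor of 8. Between Id control and WT it was 0.25, 0.40 and 0.26 under those scalings, 0.26 with no floor and 0.25 within the shared date code, where 1 member (Itga8) was called higher. Median centring moved the median of all genes there from 0.05 to 0.17. Between Id cKO and Id control the median was 0.10 with quantile normalization, 0.10 with loess, 0.088 at a floor of 7 and 0.10 at a floor of 8. Against the mean of both Id control arrays, and within the shared date code, 2 members (Itga1 and Itga6) were called higher. Between the Id control arrays it was -0.086 with median centring. Between the treated and untreated hearts it was -0.089 (quantile normalization), -0.016 (median centring) and -0.015 (loess) and -0.28 at a floor of 8. Between the untreated heart and the WT and Id control arrays it was 0.70 with loess, 0.29 with no floor, 0.75 at a floor of 7 and 0.66 with the mean over probe sets, and at a floor of 8 there were 3 members called higher and 0 lower. At a 1.5-fold limit 7 members were called higher between Id cKO and WT, 1 higher between Id control and WT, 6 higher and 1 lower between Id cKO and Id control, 1 higher and 1 lower between the Id control arrays, 1 higher and 3 lower between the treated and untreated hearts, and 12 higher and 2 lower in the untreated heart. Leaving out either Id control array gave 0 to 1 members called higher between Id control and WT (median 0.25 to 0.31), 0 to 2 between Id cKO and Id control (median -0.021 to 0.103), and 5 to 7 in the untreated heart (median 0.65 to 0.80). Beyond what each alternative changes by construction, the cause was not tested. No paired analysis was possible because the labels carry no replicate numbers. With 1 array in most groups, array number limits every comparison, and genes near the floor are the least certain.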
